A study of Mus musculus with 6 samples.

Results

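The genes described here are those for the proteins of the cytosolic ribosome, followed through predictions of which regulatory elements act on which genes in mouse oligodendrocyte precursor cells (OPCs). They were taken from the GENCODE mouse annotation as protein-coding genes whose symbol starts with Rpl or Rps and a digit, together with Rpsa, Rplp0, Rplp1 and Rplp2, and without the S6 kinase genes. The rule found 92 genes among 22028 annotated protein-coding genes: 43 of the large subunit, 31 of the small subunit, 3 of the stalk and 15 others, which were paralogs, retrocopies and Rps19bp1, the gene for a protein that binds a ribosomal protein. At least 1 prediction table listed 70 of them, against 32049 target genes of all kinds. Chromatin contacts of regions carrying H3K27ac, a histone mark of active elements, were measured by HiChIP, with 3 libraries from Ctr-OPCs and 3 from IFN-γ-OPCs. Both groups were primary OPCs of mice labelled as strain C57BL/6j and genotype Sox10-Cre/RCE, the methods giving a mixed C57BL/6xCD1 origin for the RCE reporter line, and a green fluorescent protein marks their cells that have expressed Sox10. The cells came from several pooled brains of pups of both sexes, postnatal days 4 to 6, and were isolated by sorting for that reporter or with CD140a magnetic beads, so a shift in the mix of cells and a change within cells cannot be told apart. IFN-γ-OPCs received IFN-γ at 100 ng/mL from 24 h after passaging, over 48 h, while Ctr-OPCs had the medium alone. These contacts were joined to open chromatin (ATAC-seq) and H3K27ac CUT&RUN signal through the activity-by-contact (ABC) model. The result was 1 table per condition for all 3 libraries together, so no value below has a replicate error and no difference between the conditions could be tested.

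Ribosomal proteins are needed in every cell, are assembled on ribosomal RNA in the nucleolus and account for a large part of the messenger RNA of a growing cell. Their genes have strong promoters that are open in nearly all cell types, which is why they often serve as a housekeeping reference, and their mRNAs usually start with a C and a run of pyrimidines that ties their translation to growth signals. IFN-γ is the cytokine that switches on antigen presentation, and ribosomal protein genes are not counted among its classical targets. RNA levels of these genes were not part of the tables.

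The ABC score of an element for a gene is its activity times its contact with the gene's promoter, divided by the sum of that product over all elements of the gene, the gene's own promoter included. The sum is called the gene total here. An element-gene pair scoring above 0.05 is called a connection. The tables held pairs from a score of 0.02, and no pair whose element was of the promoter class or lay within 750 bp of the gene start that the tables use. An element may still cover another annotated start of the gene. All 5 OPC lineage genes (Pdgfra, Cspg4, Sox10, Olig1 and Olig2) were listed in both tables, with 11 connections in each, of which Sox10 had 0. As 56.8% and 58.2% of annotated protein-coding genes were listed, being listed does not by itself mark a cell type. Of 5 microglia markers 3 were listed in Ctr-OPCs and 5 with IFN-γ, where Aif1 and Tmem119 were added, and the summed gene total of the 3 in both tables was 2.28 and 2.40. Microglia markers had 2 connections in Ctr-OPCs, both of Csf1r, and 0 with IFN-γ. Of the astrocyte markers 3 of 4 were listed in both tables, with a summed total of 3.86 and 3.77, and Aqp4 was in neither. Astrocyte markers had 4 connections in Ctr-OPCs and 5 with IFN-γ. All 4 neuronal markers were listed, with 4.99 and 4.42, and had 0 connections in Ctr-OPCs and 1 with IFN-γ. The OPC lineage genes summed to 11.2 and 10.04. These sums cover lists of different length, so they are not comparable between lists. Totals of single markers overlapped in Ctr-OPCs: Tubb3 had 2.20, Rbfox3 1.94 and Gfap 1.89, while the OPC lineage genes ran from 1.30 (Pdgfra) to 3.13 (Sox10). The part of microglia, astrocytes and neurons in the values of the ribosomal protein genes was not tested.

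Ribosomal protein genes had few predicted enhancers, and in Ctr-OPCs the share with a connection was below that of all protein-coding genes. Of the 92 genes, 61 were listed in Ctr-OPCs and 64 with IFN-γ, 55 of them in both. Over all annotated protein-coding genes 56.8% and 58.2% were listed. The listed genes held 111 pairs in Ctr-OPCs and 128 with IFN-γ, but only 8 and 19 of these were connections. In Ctr-OPCs 8 of 61 genes (13.1%, 95% Wilson interval 6.80% to 23.8%) had at least 1 connection, against 31.7% of all listed protein-coding genes. In IFN-γ-OPCs 18 of 64 did (28.1%, interval 18.6% to 40.1%), against 33.1%. The intervals cover counting error only. The background interval lay above that of the ribosomal protein genes in Ctr-OPCs, whereas in IFN-γ-OPCs it lay within it.

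**Figure D1:**
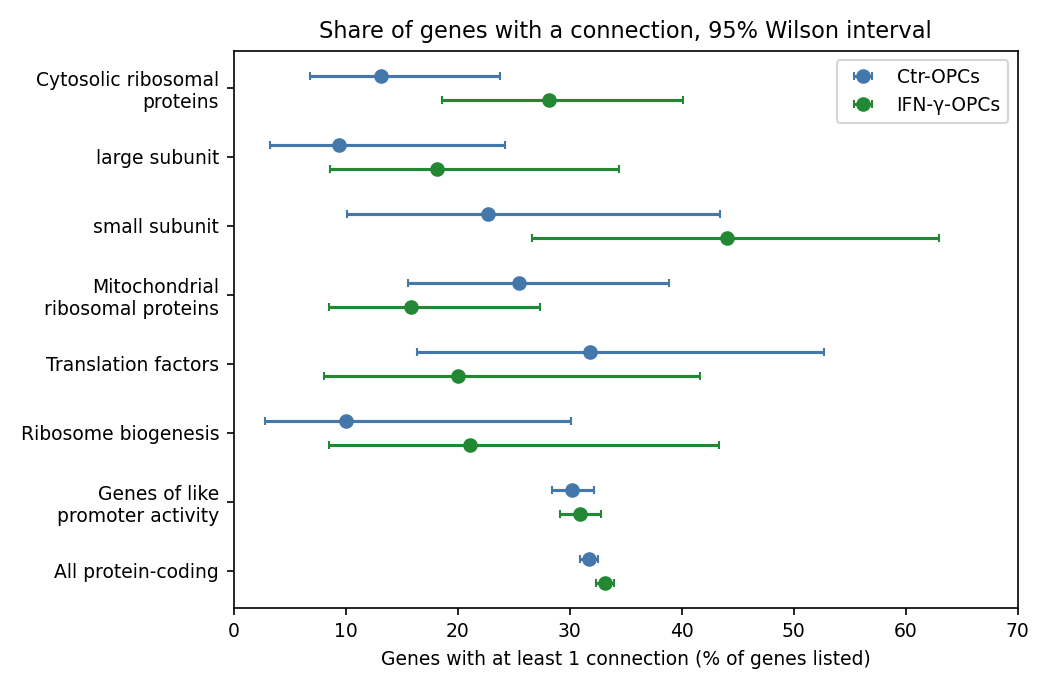
Share of listed genes with at least 1 connection (x axis, percent) in Ctr-OPCs (blue) and IFN-γ-OPCs (green) for ribosomal protein genes, their subunits, related gene lists and all protein-coding genes; bars are 95% Wilson intervals for counting error. Cytosolic ribosomal protein genes stood at 13.1% and 28.1%, and all protein-coding genes at 31.7% and 33.1%.

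Ribosomal protein gene promoters ranked high in activity, and other genes with promoters of like rank had connections more often in Ctr-OPCs. The median promoter activity quantile, the rank of a gene's promoter among all genes, was 0.902 in Ctr-OPCs and 0.897 with IFN-γ, against 0.804 and 0.803 over all protein-coding genes. A comparison group, chosen after seeing the data, held the 2741 other protein-coding genes whose quantile lay between 0.859 and 0.933. Among those listed in each table, 709 of 2345 (30.2%) and 737 of 2382 (30.9%) had a connection. The top score, the highest score of a gene with any element, had a median of 0.0287 over the ribosomal protein genes in Ctr-OPCs and 0.0299 with IFN-γ, and of 0.0377 and 0.0384 over all protein-coding genes. In Ctr-OPCs the top score was between 0.02 and 0.03 in 34 of the 61 genes, and in IFN-γ-OPCs in 32 of 64, against 32.1% and 30.9% of protein-coding genes.

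Between the conditions, 11 of the 70 genes had more connections with IFN-γ and 0 had fewer, and 59 kept their number, 52 of them at 0. Over all protein-coding genes listed in either table, 12.7% had more and 10.9% had fewer. A gain in 15.7% of the ribosomal protein genes was close to the background. When the scores of overlapping elements of a gene were summed in each table, an alternative chosen after seeing the data, 13 genes had more and 0 fewer, against 12.7% and 10.7% of protein-coding genes, and Rpl35 was no longer among those with more. Losses were possible for only 8 ribosomal protein genes, those with a connection in Ctr-OPCs. The count also depended on the score. With the score that replaces measured contact by a power law of distance, ribosomal protein genes had 35 connections in Ctr-OPCs and 30 with IFN-γ, with more in 8 of the 70 genes (11.4%) and fewer in 10 (14.3%), against 17.6% and 17.8% of protein-coding genes.

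Stretches of 4 elements are shown because they carried the main values: the highest-scoring element in both conditions (Rpl35), an element connected in both conditions (Rps15), and 2 elements that were connections with IFN-γ only (Rpl12, Rps6). Each is 200 bases of the reference, plus strand, GRCm38.p6, clear of annotated exons, with capitals marking a match to CCGGAAGT, the core that ETS factors bind, or to AAGATGGC, the YY1 core, where there is one. A stretch is only part of its element. Outside it, the Rpl12 element of the IFN-γ table held the ETS core. The Rps6 element there held the interferon-stimulated response core GAAANNGAA, found in 21.8% of all elements with IFN-γ.
Rpl35 element, chr2:39007876-39008075: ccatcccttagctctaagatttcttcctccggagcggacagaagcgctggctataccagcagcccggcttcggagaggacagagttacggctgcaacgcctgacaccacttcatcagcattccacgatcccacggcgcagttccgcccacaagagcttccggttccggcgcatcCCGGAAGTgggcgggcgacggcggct
Rps15 element, chr10:80298977-80299176: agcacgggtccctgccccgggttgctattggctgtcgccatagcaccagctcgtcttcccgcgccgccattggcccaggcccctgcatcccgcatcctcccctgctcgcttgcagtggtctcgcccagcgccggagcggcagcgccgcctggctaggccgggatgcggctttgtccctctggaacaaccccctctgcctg
Rpl12 element, chr2:32966944-32967143: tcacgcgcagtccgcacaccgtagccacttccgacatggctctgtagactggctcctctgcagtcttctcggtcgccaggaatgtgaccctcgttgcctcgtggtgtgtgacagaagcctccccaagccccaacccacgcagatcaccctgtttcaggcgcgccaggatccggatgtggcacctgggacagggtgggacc
Rps6 element, chr4:86851538-86851737: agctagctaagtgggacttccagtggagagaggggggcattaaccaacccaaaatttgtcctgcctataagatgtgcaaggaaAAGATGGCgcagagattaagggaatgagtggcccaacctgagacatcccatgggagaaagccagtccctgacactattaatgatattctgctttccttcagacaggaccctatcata

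Over all elements of ribosomal protein gene pairs, the ETS core CCGGAAGT, on either strand, was in 5 of 111 (4.50%) in Ctr-OPCs and 5 of 128 (3.91%) with IFN-γ, against 1.22% and 1.15% of all elements. Among elements of exactly 500 bases the values were 4 of 64 (6.25%) against 1.13%, and 1 of 76 (1.32%) against 1.04%. Of the motifs linked to interferon, the IFN-γ activated site (GAS) core TTCCNGGAA was in 2 of 111 (1.80%) and 1 of 128 (0.781%) of the elements, against 2.52% and 2.70% of all, and at 500 bases in 0 of 64 and 0 of 76, against 1.63% and 2.18%. The interferon-stimulated response core GAAANNGAA was in 23 of 111 (20.7%) and 31 of 128 (24.2%), against 19.03% and 21.8%, and at 500 bases in 6 of 64 (9.38%) and 13 of 76 (17.1%), against 14.3% and 18.3%. The YY1 core AAGATGGC was in 6.31% and 3.13%, against 4.40% and 4.22%, and GCGCATGC, the NRF1 core, in 2.70% and 1.56%, against 1.86% and 1.46%. No motif contains another, the ETS and GAS cores share the letters GGAA, and a match is a run of letters, not a bound site.

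The RefSeq promoter table held entries for 66 of the 92 genes (71.7%), so shares of promoters with a motif are not given. The RefSeq start was a C followed by at least 4 pyrimidines in 13 of the 66, and in 4 of the 15 that had a connection in either table, against 2.19% of the 16522 protein-coding genes with an entry. These 4 were picked for that start, the known mark of ribosomal protein mRNAs, and do not stand for the others. The RefSeq start was the GENCODE start in 13 of the 66 genes and within 5 bases of it in 20, so the count depends on where the start is annotated. Rpl27a, with a run of 16 pyrimidines from a T, is not counted. The RefSeq start lay 493 bp from the start that the tables use in Rpl35, 56 bp in Rpl38, 1425 bp in Rps10 and 45 bp in Rps6. Each line gives 10 bases before the RefSeq start and 20 from it (GRCm38.p6), with the pyrimidine run in capitals.
Rpl35, chr2:39005112-39005141, minus strand: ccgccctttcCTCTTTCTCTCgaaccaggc
Rpl38, chr11:114668570-114668599, plus strand: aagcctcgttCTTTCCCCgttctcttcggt
Rps10, chr17:27635225-27635254, minus strand: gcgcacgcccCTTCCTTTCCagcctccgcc
Rps6, chr4:86857348-86857377, minus strand: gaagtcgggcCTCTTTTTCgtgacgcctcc

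In the large subunit, 3 of 32 listed genes had a connection in Ctr-OPCs and 6 of 33 with IFN-γ. Rpl35, whose protein sits by the exit of the nascent peptide tunnel, had the highest score in each table. Its top element, chr2:39007831-39008330 (mm10), lies 2.46 kb from the Rpl35 start, over the start of the neighbouring gene Arpc5l, which encodes an actin-nucleating subunit. It scored 0.129 in Ctr-OPCs and 0.106 with IFN-γ. A further element, 79.0 kb away over the gene of the nuclear receptor Nr6a1, was 974 bp wide in the IFN-γ table and scored 0.0922. It overlapped 2 elements of 500 bp in the Ctr table, with scores of 0.0339 and 0.0307, so that Rpl35 had 1 connection in Ctr-OPCs and 2 with IFN-γ. The Ctr scores summed to 0.0646, above the cut-off, so the change in number rested on how the elements were called. Their activities summed to 4.20, against 3.77 with IFN-γ. Contact was 0.0123 for each and 0.0175 with IFN-γ, whereas the near element had a lower activity with IFN-γ, 2.69 against 3.42.

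Rpl13 was connected in both conditions through an element over Spg7, the gene of a mitochondrial protease, 4.68 kb from its start. The score was 0.109 in Ctr-OPCs and 0.0961 with IFN-γ, and the element's activity was 8.61 and 6.36. Rpl10, whose protein joins the large subunit late in its assembly, is on the X chromosome. Its connected element was over Flna, the filamin A gene, 24.6 kb away, and scored 0.0665 and 0.0964. Contact of this pair was 0.0107 in Ctr-OPCs and 0.0180 with IFN-γ, with an activity of 2.97 and 3.16. Scores of these 3 genes moved in both directions.

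Connections with IFN-γ only were found for Rpl12, Rpl18, Rpl38 and Rpl10l. Rpl12, whose protein forms the base of the stalk, had an intergenic element 5.59 kb away that scored 0.0424 in Ctr-OPCs and 0.0744 with IFN-γ. For Rpl18, an element 8.11 kb away over Dbp, a circadian transcription factor gene, scored 0.0250 and 0.0723, with an activity of 2.12 and 3.46. Rpl38, which is needed in mouse embryos for axial patterning, had an element in an intron of Ttyh2 at 35.8 kb that scored 0.0226 and 0.0504. This pair's contact was 0.0108 and 0.0235, the largest contact ratio among pairs that were a connection in either condition, while its activity was 3.70 and 3.36. Rpl10l, a retrogene copy of Rpl10 known from testis, was listed in IFN-γ-OPCs only, through an element 871 kb away that scored 0.0616. Its gene total of 0.272 was low, and its promoter quantile was 0.510.

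**Figure D2:**
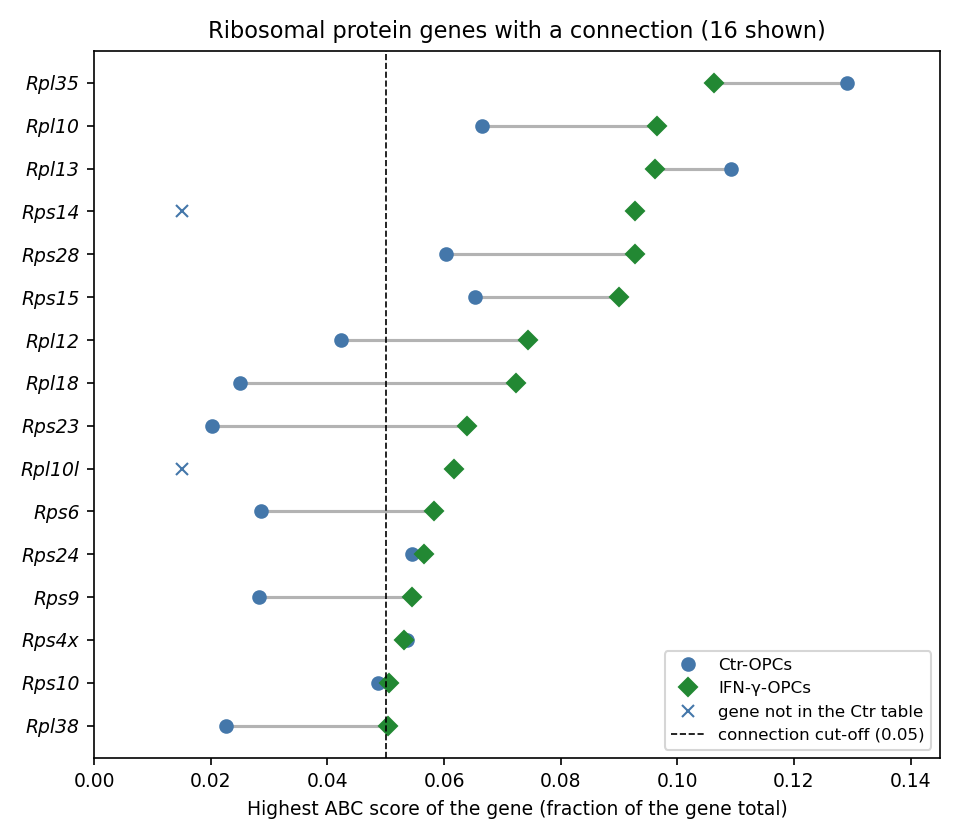
Highest ABC score (x axis, a fraction of the gene total) in Ctr-OPCs (blue circles) and IFN-γ-OPCs (green diamonds) for 16 of the 18 ribosomal protein genes with a connection in either table, with the cut-off of 0.05 as a dashed line; crosses mark genes absent from the Ctr table and have no score. The highest score may belong to different elements in the 2 conditions, as in Rps4x. In 9 of the 16 genes only the IFN-γ score lies above the cut-off.

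In the small subunit, 5 of 22 listed genes had a connection in Ctr-OPCs (22.7%, interval 10.1% to 43.4%) and 11 of 25 in IFN-γ-OPCs (44.0%, interval 26.7% to 62.9%). Rps15, whose protein is in the head of the small subunit, was connected with an element in an intron of Apc2, 6.62 kb away, which scored 0.0653 and 0.0901. Its contact was 0.0627 and 0.0816, and its activity 3.03 and 2.58. Rps28 had an element over Kank3 at 6.87 kb with 0.0603 and 0.0927. Rps24 had an element within its own gene, 3.65 kb from the start that the tables use, with 0.0545 and 0.0565, and this element covered the RefSeq start of Rps24, 3553 bp from the one used. Rps15 and Rps28 scored higher with IFN-γ and Rps24 differed little.

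Rps4x kept 1 connection but with a different element. For this X-linked gene, the intergenic element 22.4 kb away scored 0.0537 in Ctr-OPCs and 0.0454 with IFN-γ, where an element 1.79 kb from the start, within the gene, was the connection, with 0.0532. Both connected scores were between 0.05 and 0.06.

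A further 6 small-subunit genes had a connection with IFN-γ only, among them Rps6, Rps9, Rps10, Rps14 and Rps23. Rps6, whose protein is phosphorylated by the S6 kinases, had an intergenic element 5.6 kb away that scored 0.0287 in Ctr-OPCs and 0.0582 with IFN-γ, with higher activity (0.397 and 0.560) and contact (0.0334 and 0.0511). Rps9 had an element within its own gene, over an annotated transcript start of Rps9 in the IFN-γ table, with 0.0222 and 0.0545, where activity was 0.631 and 1.30, the element being wider in the IFN-γ table, and contact 0.0328 and 0.0327. Rps10 had an intergenic element with 0.0487 and 0.0505, which barely crossed the cut-off. Rps23, whose protein reaches into the decoding centre, was connected at 538 kb with an element over the start of Ssbp2, which scored 0.0639 and had no matching pair in the Ctr table, where the top score of Rps23 was 0.0202. Rps14 was connected in an intron of Ndst1 at 1.19 kb with 0.0927. Rps14, the gene whose loss underlies the anaemia of a myelodysplastic syndrome in people, was absent from the Ctr table. A gene missing from a table counts as 0 connections there, whichever limit it missed.

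Scores between 0.05 and 0.06 were found in 3 of the 8 connections in Ctr-OPCs (37.5%) and 8 of the 19 with IFN-γ (42.1%), near the 32.8% and 33.8% over all protein-coding genes. Between 0.04 and 0.05 there were 9 of 111 pairs (8.11%) and 7 of 128 (5.47%), against 9.92% and 9.95%. With a cut-off of 0.06, chosen after seeing the data, 5 and 11 connections remained, with more in 6 genes (8.57%) and fewer in 0, against 9.09% and 8.09% of protein-coding genes. With 0.04 the counts were 17 and 26, with more in 11 genes (15.7%) and fewer in 5 (7.14%), against 18.6% and 15.4%. With both of these cut-offs the share of genes with more was below the background.

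Of the connections, 6 were shared, which is 75% of the 8 in Ctr-OPCs and 31.6% of the 19 with IFN-γ. A shared connection has an element that overlaps by at least 1 bp a connected element of the same gene in the other table. Over all protein-coding genes 56.7% and 53.0% were shared. The 13 others in IFN-γ-OPCs comprised 8 whose pair was listed below the cut-off in Ctr-OPCs and 5 with no matching pair there. The median distance from the element to the start was 6.39 kb in Ctr-OPCs and 6.63 kb with IFN-γ, against 5.05 and 5.53 kb over all protein-coding genes. Elements within genes made up 7 of 8 (87.5%) and 15 of 19 (78.9%) connections, near the 76.7% and 74.8% over all protein-coding genes. The element lay within 1 kb of the annotated start of another protein-coding gene in 3 of 8 connections (37.5%, interval 13.7% to 69.4%) and 4 of 19 (21.1%, interval 8.51% to 43.3%), against 10.02% and 9.89% over all protein-coding genes. Among these were the elements at Flna, Arpc5l, Nr6a1 and Ssbp2. The element covered another annotated start of the same gene in 1 of 8 connections and 2 of 19, those of Rps24 and Rps9, against 13.9% and 12.3% over all protein-coding genes.

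Elements of ribosomal protein genes had other target genes, among them snoRNA genes. With each element-gene pair counted once, the median element had 3 target genes in both conditions, as over all pairs of protein-coding genes. The gene was the single target in 17.1% and 13.3% of the pairs, against 28.6% and 28.7%. A snoRNA gene was a target of the element in 25.2% and 30.5%, against 6.44% and 6.59%. Small nucleolar RNAs guide the modification of ribosomal RNA and are often processed from introns of ribosomal protein genes: 30 of the 92 genes contained 58 annotated snoRNA genes. Where a snoRNA and its host were both listed, the median ratio of their gene totals was 1.00 in both tables. Snora65, inside Rpl12, scored 0.0424 and 0.0744 with the Rpl12 element, and Snord68, inside Rpl13, scored 0.109 and 0.0961 with the Rpl13 element. Such a pair of targets shares the element and is not a separate observation.

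Matching each element-gene pair to its best overlap in the other table gave 59 pairs of 44 ribosomal protein genes. Activity, the signal from ATAC-seq and H3K27ac, had a median log2 ratio of IFN-γ over Ctr of -0.19 (SD 0.48 over elements, 95% order-statistic interval -0.28 to -0.07), against -0.10 over the 10150 elements of all protein-coding genes. It was higher by over 1.5-fold in 3 elements and lower in 6, where the background shares were 7.96% and 12.1%. Contact had a median log2 ratio of 0.07 (SD 0.49, interval -0.09 to 0.32), against 0.06 over 14500 pairs. It was higher by over 1.5-fold in 10 pairs and lower in 1, with background shares of 11% and 7.35%. Of the pairs below the cut-off in both tables, Rpl36 had an element whose activity was 1.90 and 0.579, and Rpl9 one whose activity was 1.73 and 0.690 while its contact was 0.0121 and 0.0415. The Rpl36 element was 1794 bp wide in the Ctr table and 500 bp in the IFN-γ table, and the Rpl9 element 1979 and 500 bp.

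Activity moved with the width of the element as called. Of the 59 elements, 14 were wider in the IFN-γ table, and activity was higher in 13 of these (median log2 ratio 0.35). It was lower in 16 of the 18 that were narrower (median -0.46) and in 22 of the 27 of equal width (median -0.25). All 3 elements past 1.5-fold upwards were wider and all 6 past it downwards were narrower, and 0 of the 27 elements of equal width passed it. Over all protein-coding genes activity was higher in 79.6% of wider elements (median 0.33) and lower in 85.1% of narrower ones (median -0.45) and in 60.9% of those of equal width (median -0.08). At equal width 4.13% passed 1.5-fold upwards and 3.87% downwards there, so a count of 0 in 27 is near the background. Contact over the 27 pairs of equal width had a median log2 ratio of 0.22, with 2 higher by over 1.5-fold and 0 lower, against a median of 0.06 and shares of 11% and 7.25% over all protein-coding genes. This split by width was chosen after seeing the data, and whether signal per base differed was not tested.

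Of the matched pairs, 16 were connected in 1 or both conditions. In these, the score was higher with IFN-γ in 12 and lower in 4. Contact was higher in 12, with a median log2 ratio of 0.34, and activity in 7, with a median of -0.12. As these pairs were chosen by their scores, which contain contact, the counts describe the pairs and are no test. Over the 5422 such pairs of all protein-coding genes, the score was higher in 51.8%, contact in 55.9% (median 0.06) and activity in 40.8% (median -0.09). Among the 8 that became connections, contact was higher in 7 and activity in 5, against 84.7% and 73.2% of all such pairs. The exception in contact was Rps9, and the 3 pairs with lower activity included those of Rpl38 and Rps10. These 3 had elements of equal width in both tables. The 5 with higher activity in the best-overlapping element, of Rpl12, Rpl18, Rpl35, Rps6 and Rps9, had wider elements in the IFN-γ table, 1497 against 500 bp for Rps9 and 1010 against 500 bp for Rps6. Of the 8, only the Rpl35 element overlapped more than 1 Ctr element of its gene, and there the summed activity was lower with IFN-γ.

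**Figure D3:**
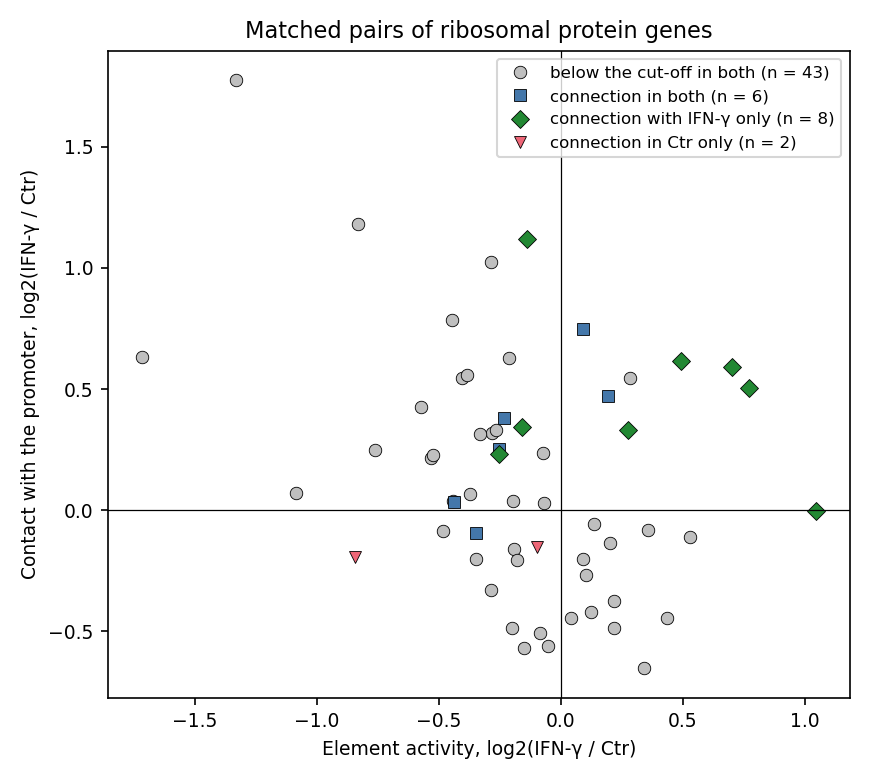
Log2 ratio of IFN-γ-OPCs over Ctr-OPCs of element activity (x axis) and of contact with the promoter (y axis) for the 59 matched pairs of ribosomal protein genes; symbols mark pairs that were a connection in both conditions (6), with IFN-γ only (8), in Ctr only (2) or in neither (43). Of the 8 green diamonds 7 lie above the zero line of contact.

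The median gene total of ribosomal protein genes was above that of all protein-coding genes, and the order of their totals was almost the same with IFN-γ. The median total was 1.19 in Ctr-OPCs and 1.20 with IFN-γ, on the tables' own scale of activity times contact, against 0.963 and 0.916 over all protein-coding genes. Their median percentile among protein-coding genes was 63.9 and 71.0, and 37 of 61 and 42 of 64 genes lay above the 50th. These medians and counts cover partly different genes in the 2 conditions, so they do not show a change within genes. Across the 55 genes listed in both tables the rank correlation of the 2 totals was 0.990, a description over genes that share the same libraries. The median log2 ratio was -0.13 (SD 0.16 over genes, order-statistic interval -0.16 to -0.06), with 12 genes higher and 43 lower. Over 10428 protein-coding genes it was -0.08 (SD 0.18), and 67.7% were lower. A ratio past 1.5-fold was found in 0 ribosomal protein genes in either direction, against 0.575% of protein-coding genes higher and 0.134% lower. Relative to the median of each table, which moved by -0.07, 25 genes were higher and 30 lower.

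**Figure D4:**
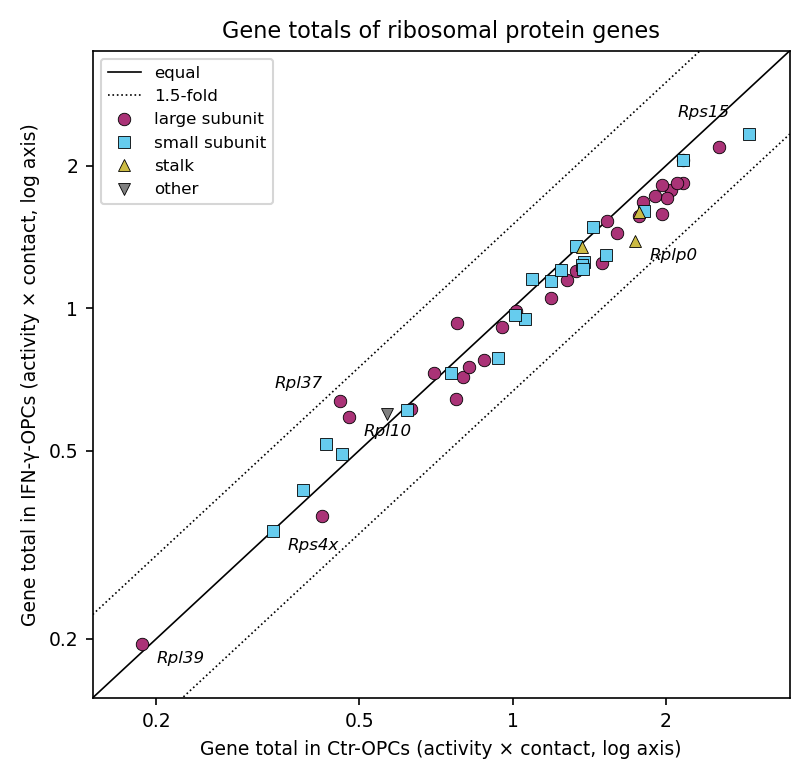
Gene total (activity times contact, log axes) in Ctr-OPCs (x axis) and IFN-γ-OPCs (y axis) of the 55 ribosomal protein genes listed in both tables, by subunit, with equality as a solid line and 1.5-fold as dotted lines. All 55 lie between the dotted lines, from Rpl39 at 0.188 and 0.195 to Rps15 at 2.91 and 2.33.

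The highest totals, by the mean log2 of both tables, were those of Rps15 (2.91 in Ctr-OPCs and 2.33 with IFN-γ), Rpl13 (2.54 and 2.19), Rpl23a (2.16 and 2.06), Rps10 (2.16 and 2.05) and Rpl10a (2.17 and 1.84). The lowest were those of Rpl39 (0.188 and 0.195), Rps4x (0.340 and 0.338), Rpl7 (0.422 and 0.363), Rps20 (0.389 and 0.412) and Rps12 (0.431 and 0.515). The order of these genes was nearly the same in both tables. Rpl39 and Rps4x are on the X chromosome, as are Rpl10 (0.477 and 0.589) and Rpl36a, which was listed in Ctr-OPCs only with 0.204. Protein-coding genes of the X chromosome had a median total of 0.225 and 0.233, against 0.989 and 0.934 on autosomes. Across ribosomal protein genes the total had a rank correlation of 0.512 (61 genes) and 0.581 (64 genes) with the number of other protein-coding starts within 250 kb, and of 0.611 and 0.610 across all protein-coding genes, as a description with shared libraries.

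With IFN-γ the highest ratio of totals was that of Rpl37, 0.458 in Ctr-OPCs and 0.638 with IFN-γ (log2 ratio 0.48), followed by Rpl10 (0.30), Rps12 (0.26), Rpl24 (0.25) and Rps6 (0.09). The lowest ratios were those of Rplp0 (-0.33), Rps15 (-0.32), Rpl22 (-0.31), Rpl15 (-0.27) and Rpl36 (-0.27). None of these passed 1.5-fold. Large-subunit genes had a median of -0.15 (5 higher, 25 lower) and small-subunit genes of -0.06 (6 higher, 15 lower), and their order-statistic intervals, -0.18 to -0.07 and -0.16 to 0.03, overlapped.

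The 3 stalk genes, whose acidic proteins recruit elongation factors, had no connection in either table, which in 3 genes allows a share of up to 56.1% by the Wilson interval. Rplp0, which anchors the stalk, had a top score of 0.0333 in Ctr-OPCs and 0.0204 with IFN-γ and a total of 1.74 and 1.39. Rplp1 had top scores of 0.0305 and 0.0235 with totals of 1.37 and 1.35, and Rplp2 had 0.0222 and 0.0244 with 1.77 and 1.60. Rpsa, a small-subunit protein also described as a laminin receptor, had top scores of 0.0281 and 0.0358 and totals of 1.38 and 1.21, again without a connection.

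Of the genes in 1 table only, Rps14 had 6 pairs there and Rpl10l 9, and each of the others had 1 or 2 pairs and no connection. The 6 genes in the Ctr table only included Rpl17, Rpl36a, Rpl36-ps4, Rpl36al and Rps27rt, with top scores from 0.0208 to 0.0488. The 9 in the IFN-γ table only were Rpl26, Rpl29, Rpl30, Rps13, Rps14, Rps18, Rps27a, Rpl10l and Rps19bp1, with top scores from 0.0213 to 0.0927. A further 22 genes were in neither table: Rpl4, Rpl6, Rpl7a, Rpl11, Rpl13a, Rpl21, Rpl23 and Rpl35a of the large subunit, Rps2, Rps7, Rps25, Rps26 and Rps29 of the small subunit, and 9 others. Ribosomal protein genes have many processed copies in the genome, and ATAC-seq reads matching several places were removed according to the methods. For the HiChIP and CUT&RUN reads this is not given in the sources used here, so the level at any one gene is uncertain to that degree.

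Connections of other genes of translation changed in both directions, as over all protein-coding genes, where 12.7% had more and 10.9% fewer. Of 34 translation genes 24 were listed, and 2 had more and 5 fewer connections with IFN-γ. Eef1a1, the main elongation factor that brings aminoacyl-tRNA, had 3 connections in each table with a top score of 0.217 and 0.237. Eef2, the translocation factor, had 2 in Ctr-OPCs and 0 with IFN-γ. Eif4e, the cap-binding protein, had 0 and 1 with a top score of 0.0229 and 0.155. Of 26 ribosome biogenesis genes 22 were listed, with more connections in 4 and fewer in 2. Ubtf, the RNA polymerase I factor, had 0 and 2, and Fbl, the rRNA methyltransferase, 0 and 1. Of 78 mitochondrial ribosomal protein genes 60 were listed, with more in 3 and fewer in 8, and 25.5% and 15.8% of those listed had a connection, against 31.7% and 33.1% of protein-coding genes. Among listed ribosome biogenesis genes 2 of 20 (10%) and 4 of 19 (21.1%) had a connection, and among translation genes 7 of 22 (31.8%) and 4 of 20 (20%). A low share in Ctr-OPCs was thus not particular to the cytosolic ribosomal protein genes. The median log2 ratio of the gene total was -0.14 for translation genes, -0.16 for ribosome biogenesis genes and -0.10 for mitochondrial ribosomal protein genes, with lower totals in 16 of 18, 15 of 17 and 34 of 48 genes, against 67.7% of all protein-coding genes, and 0 genes of the 3 lists passed 1.5-fold. The cytosolic ribosomal protein genes, at -0.13, lay among these lists.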

How the data were processed

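H3K27ac HiChIP contacts of 6 libraries were analysed as 1 prediction table per condition, grouped by the library titles. The study mapped and de-duplicated the reads with HiC-Pro on mm10, and the ABC model took ATAC-seq and H3K27ac CUT&RUN for activity. The ABC score is deposited as a fraction. Element activity is deposited as a signal made from the coverage of both assays. Contact, contact with pseudocount, their product with activity and the power-law score are deposited as score values; promoter quantiles are deposited ranks. How the authors scaled the conditions to each other and the read depth are not given in the sources used here, so ratios between conditions rest on the deposited scale. The tables had 66637 (Ctr) and 71478 (IFN-γ) pairs, with 11648 and 12410 connections, and start at a score of 0.02, a promoter activity quantile of 0.4 and a distance of 750 bp. Target genes were named by Ensembl ID through GENCODE M21 (GRCm38); the start given for all 70 listed genes equalled the annotated one.

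The gene total was the numerator divided by the score. Pairs were matched by mutual best overlap of at least 1 bp. Medians have order-statistic intervals and shares Wilson intervals (95%), for counting error only. The functions were tested on simulated data. Sequences were read from RefSeq GRCm38.p6 with samtools 1.23.1 indexing, and 200 promoter entries compared with the genome had 0 differences. Tables were computed with Python 3.11.15, pandas 2.3.3, NumPy 2.4.6 and SciPy 1.17.1, and drawn with matplotlib 3.10.9. Genes were named by this rule: the 5 extremes of connections, of change in connections, of gene total and of its change, the stalk genes and Rpsa, genes in 1 table only and the highest-scoring pair of each table; any other gene was chosen once values were known. Some genes that the rule or the lists take are counted but not reported by name here. The gene set and lists were chosen with earlier results of these data known. The other deposited files hold the same pairs and scores and were not used. Alternatives were other cut-offs, the power-law score, centring, a 2-fold limit, stricter overlap and shorter gene lists.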

Additional observations from a re-analysis of the deposited data

How the results depend on the processing

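No paired analysis was possible because each condition has 1 table for its 3 libraries together, and for the same reason no library could be left out. Over the main counts, shares and medians, 102 values under an alternative stayed close to those of the report and 41 moved, by over 1.5 times for a count. The share of ribosomal protein genes with a connection stayed below that of all protein-coding genes in both conditions with the power-law score and with cut-offs of 0.04 and 0.06, whereas the gain with IFN-γ did not hold under every setting. The number of connections was 111 and 128 with all deposited pairs (more in 26 genes, 37.1%, and fewer in 23, 32.9%, against 40.6% and 33.5% of protein-coding genes), 35 and 30 with the power-law score (fewer in 10, 70% of those with IFN-γ shared, median top scores of 0.0475 and 0.0437), and 2 and 1 with a cut-off of 0.1 (more in 0, fewer in 1, against 2.94% and 2.64% of protein-coding genes, 100% of those with IFN-γ shared, at 2.46 kb). It was 17 in Ctr-OPCs with a cut-off of 0.04 (fewer in 5), 5 and 11 with 0.06 (more in 6, 100% of those in Ctr-OPCs shared), 5 in Ctr-OPCs without elements near other starts, 7 and 17 without elements over another start of the same gene (more in 10), and 9 and 22 with overlapping elements summed. For the settings that drop elements near or over a start, shares of protein-coding genes are not given, so those counts are not compared with a background. With all deposited pairs the change in number was -2 for Rpl35, -1 for Rpl38 and -1 for Rpl12, and with the power-law score it was -1 for Rps23.

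Element activity past the fold was higher in 5 elements after centring, higher in 1 and lower in 3 at 2-fold, lower in 1 among pairs with a connection, lower in 3 when both elements overlapped by 50% or more, and higher in 0 and lower in 0 at equal width. Contact past the fold was higher in 6 and lower in 3 pairs after centring, higher in 4 and lower in 0 at 2-fold, higher in 4 and lower in 0 among pairs with a connection (median log2 ratio 0.34), higher in 6 with the reciprocal overlap, lower in 2 without pseudocount, and higher in 2 and lower in 0 at equal width. Apart from equal width, shares of protein-coding genes under these settings are not given, so these counts of activity and contact are not compared with a background. The cause of these shifts was not tested, beyond the smaller number of pairs in the subsets (16 with a connection, 52 with the reciprocal overlap and 27 of equal width). Centring turned the sign of the gene total ratio in 13 of the 55 ribosomal protein genes, among them Rplp1, Rps4x, Rps23, Rps24, Rps10 and Rpl23a, all within 1.5-fold. Read depth behind the tables is unknown, so it is not known how far counting noise moves a score across the cut-off.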
